A study of Mus musculus with 8 samples.

Results

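*Flcn* (ENSMUSG00000032633.12) was examined as a single gene in PRDM10 ChIP-seq peak lists from mouse embryonic stem cells (mESCs). Every listed peak that overlapped the GENCODE vM21 gene body, extended by 5 kb upstream and 1 kb downstream, was taken as a peak of the gene. This gave 2 of the 528 peaks listed for cells given ethanol (EtOH) and 0 of the 176 peaks listed for cells given 4-hydroxytamoxifen (4-OHT). The cells of both treatments were *Prdm10*F/F; *Rosa26*-CreERT2 mESCs, in which 4-OHT activates a Cre recombinase expressed from the *Rosa26* locus, so the EtOH cells carry the floxed allele and the silent recombinase. Cells received 50 nM 4-OHT or the vehicle for 24 h and were harvested 48 h after induction, and the labels give the 4-OHT cells the genotype *Prdm10*del/del; *Rosa26*-CreERT2. Each treatment had 3 ChIP samples, made with 2 in-house rabbit polyclonal antibodies and 1 commercial antibody to PRDM10, and 1 input sample. The authors merged the 3 antibodies into 1 peak list per treatment, so no value below has a replicate error, and the number of reads behind each peak is unknown here. The lists hold no expression values, so neither the identity of the cells nor the loss of *Prdm10* was checked against them.

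Folliculin, the product of *Flcn*, is a tumour suppressor whose inherited loss causes Birt-Hogg-Dubé syndrome, with skin tumours, lung cysts and kidney cancer. Together with its partners FNIP1 and FNIP2 it acts at the lysosome as a GTPase-activating protein for the RagC and RagD GTPases, which recruit mTORC1 when amino acids are present. Through the same step it controls the transcription factors TFEB and TFE3, and in mESCs it is known for promoting exit from pluripotency by holding TFE3 in the cytoplasm. PRDM10 is a zinc finger transcription factor of the PR domain family that binds DNA at a defined sequence motif.

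*Flcn* lies on the minus strand of GRCm38 at chr11:59791408-59810016, spans 18609 bp and has 6 annotated transcripts. The transcript with the 5′-most start has 13 exons. Its exon 1 holds only 5′ untranslated sequence, the coding sequence beginning in exon 3. The EtOH peak covered chr11:59809736-59810373, at the 5′ end of the gene. Its sequence was searched on both strands for TGGTNNNNNCC, and 2 matches were found. These letters are a reading by eye of the motif logo in the study, and every match, distance and score below depends on that reading. They are shown with 8 bases on each side, read 5′ to 3′ on the strand that carries the match, with the 6 fixed letters in capitals, because they are the only matches within the peak.

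Summit site, chr11:59810043-59810056, plus strand: aaagcgtagaTGGTtccggCCgccgagaga
Exon 1 site, chr11:59809846-59809859, minus strand: ggcctgcggaTGGTtcggtCCggctgggtc

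The summit site lay 27 to 40 bp upstream of the *Flcn* TSS and the exon 1 site lay 157 to 170 bp downstream of it, in the 5′ untranslated region. Their centres were 197 bp apart and they pointed away from each other. Over the 14 bases formed by the match, 2 bases before it and 1 after it, the sites shared 12 bases, including the first 8. From the exon 1 site to the summit site the changes were G9C and T11G, where position 1 is the first of the 14 bases as printed 5′ to 3′. A longer pattern of 14 letters was read from the logo in the same way. The exon 1 site fitted it at every position, whereas the summit site differed from it at position 11, and the site in the study's own gel shift probe also differed from it at 1 position.

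The 250 bases before the RefSeq start of *Flcn* (GRCm38.p6, chr11:59810040-59810289, minus strand) are shown 5′ to 3′ in the direction of *Flcn* transcription, because they carry the higher summit. The capitals mark the fixed letters of the summit site, read on the opposite strand.

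*Flcn* promoter: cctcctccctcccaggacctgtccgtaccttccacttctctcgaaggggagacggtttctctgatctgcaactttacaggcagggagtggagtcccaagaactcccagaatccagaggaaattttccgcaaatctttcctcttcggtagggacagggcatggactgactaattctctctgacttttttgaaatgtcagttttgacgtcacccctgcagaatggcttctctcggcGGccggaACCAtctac

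Both EtOH entries of *Flcn* used the same 638 bp interval and differed in their summit, the position of the highest enrichment. The higher summit, at chr11:59810054, had a signal value of 704 and ranked 10 of 528, with 98.1% of the listed peaks below it. The lower summit, at chr11:59810273, had a signal value of 103 and ranked 299. The signal value is the enrichment that the peak caller gave each peak and has a scale of its own in each list. Relative to the median of the EtOH list, 131, the higher summit was 5.36 times as high and the lower one 0.780 times. Both entries had the maximum IDR score of 1000, but so did 504 of the 528 EtOH peaks, and the FDR score of 2.78 was shared by 303 of them. The IDR score measures reproducibility between pseudo-replicates split from the pooled samples, and not between the antibodies. Of the deposited values, only the signal value and the summit position differed between the 2 *Flcn* entries.

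**Figure D1:**
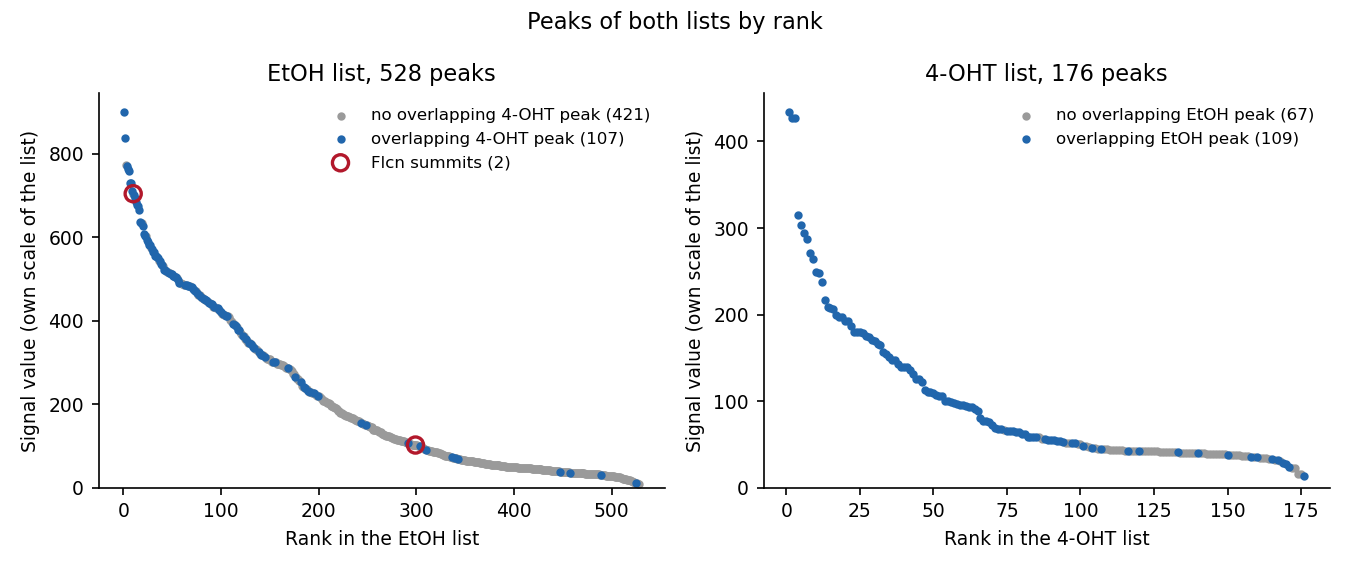
Signal value (vertical axes, each on the scale of its own list) against rank in the EtOH list (left, 528 peaks) and the 4-OHT list (right, 176 peaks). Blue points overlap a peak of the other list and grey points do not, and the red rings mark the *Flcn* summits at ranks 10 and 299.

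The higher summit lay between 2 divergent starts. It was 38 bp upstream of the 5′-most GENCODE TSS of *Flcn*, at chr11:59810016, and 15 bp upstream of the RefSeq start at chr11:59810039. In the other direction it was 26 bp upstream of the TSS of *Gm16062* (ENSMUSG00000087249.1, chr11:59810080-59818491), an antisense noncoding gene on the plus strand whose start is 64 bp from that of *Flcn*. Of the 528 EtOH summits, 369 lay within 500 bp of an annotated TSS, and 67 (12.7%) lay between a minus-strand and a plus-strand start that were each within 500 bp. The distance of 26 bp was short for the list, whose median was 148.5 bp, and 46 peaks (8.71%) had a summit nearer to a TSS. The remaining 5 transcripts of *Flcn* start further into the gene, and the higher summit was 60, 130, 343, 453 and 466 bp upstream of them. A signal at this position cannot be assigned to either gene from the lists, since both starts fall within the interval.

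The interval reached 357 bp upstream of the *Flcn* TSS and took in 281 bp of exon 1. It also held all 182 bp of exon 1 of *Gm16062*. The higher summit was in the middle of the interval, 318 bp from one end and 319 bp from the other. The lower summit lay 257 bp upstream of the *Flcn* TSS and 193 bp downstream of the *Gm16062* TSS, 12 bp past the end of its exon 1 and so in its first intron.

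**Figure D2:**
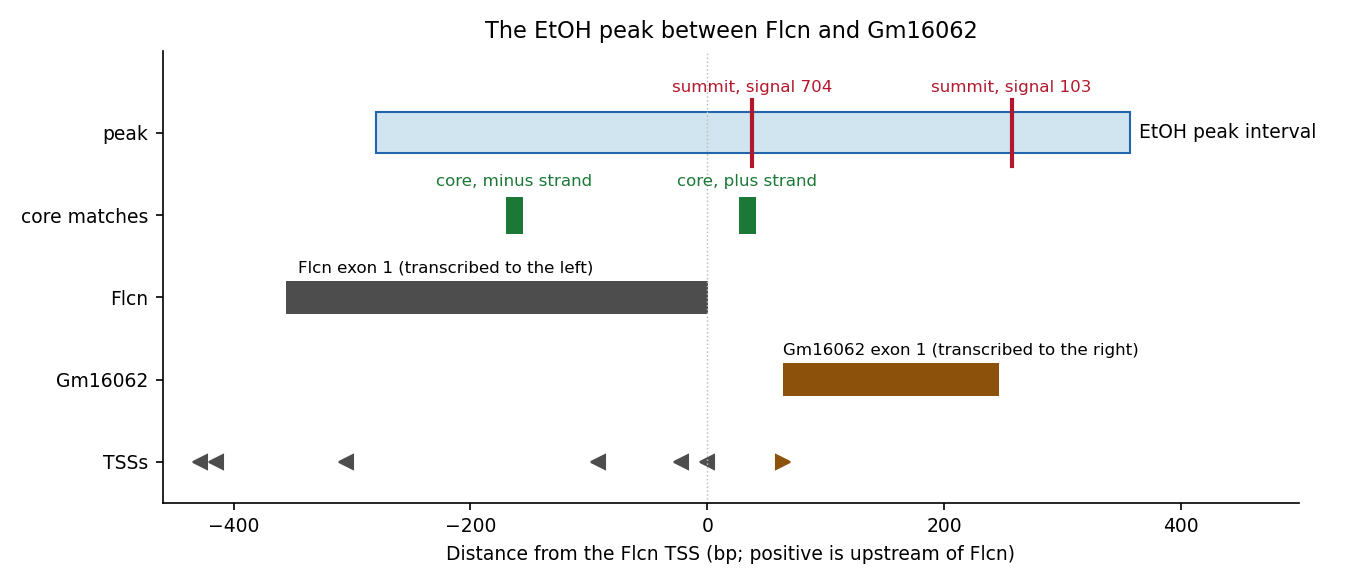
Map of the EtOH peak against distance from the *Flcn* TSS in bp, with positive values upstream of *Flcn*. The pale bar is the listed interval, red lines are its summits, green bars are the motif matches, dark and brown bars are exon 1 of *Flcn* and *Gm16062*, and arrowheads are annotated starts. The higher summit and a motif match lie between the starts of the 2 genes, and no match lies near the lower summit.

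Few intervals were listed with 2 summits under the same start and end, and *Flcn* had the highest signal value among them. The 528 entries described 520 distinct intervals, and 8 of these were listed with 2 summits. Overlapping entries with different ends, such as those at *Nt5m* described below, were not counted here. Merging all overlapping entries left 484 regions, so overlap between entries was more common than the 8 intervals show. The *Flcn* summits were 219 bp apart, and the spacing in the other 7 intervals was between 203 and 232 bp. The lower *Flcn* summit reached 14.6% of the higher one. In the other 7 intervals this share ran from 5.51% at *Atrnl1*, which encodes an attractin-like transmembrane protein, to 63.3% at *Fam53c*. The share at *Eif3b*, which encodes a subunit of the translation initiation factor eIF3, was 23.7%. Of those 7 intervals 3 overlapped a 4-OHT peak and 4 overlapped none, where 79.7% of all EtOH peaks overlapped none.

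**Figure D3:**
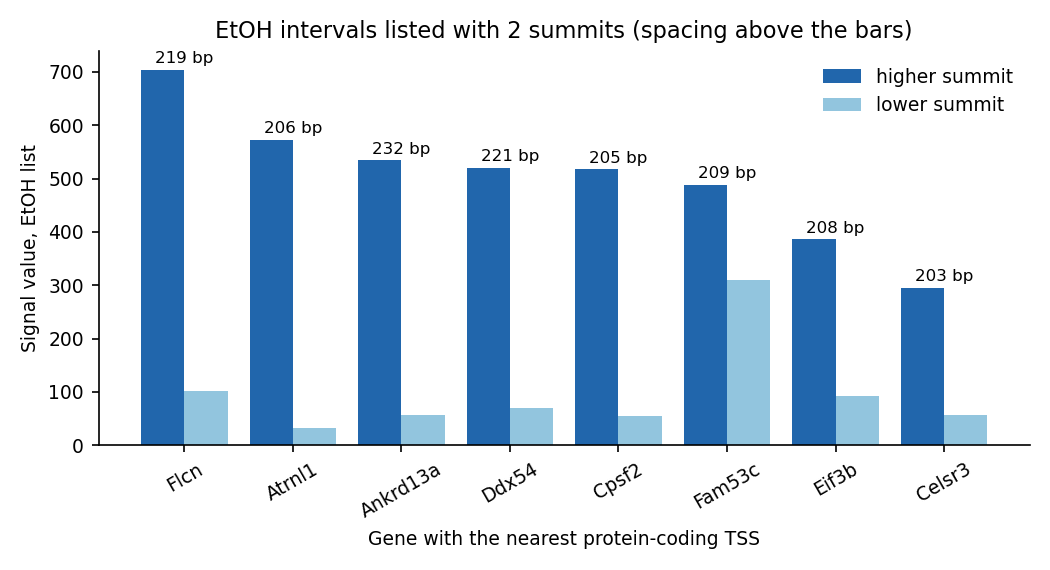
Signal values in the EtOH list of the higher (dark) and lower (pale) summit of the 8 intervals listed with 2 summits, named by the nearest protein-coding TSS, with the spacing of the summits in bp above the bars. *Flcn* has the highest first summit, and the spacings fall between 203 and 232 bp.

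The interval was wide for the list. The commonest width, 430 bp, was held by 300 peaks and was also the median, and 3 entries were wider than the 638 bp at *Flcn*. The 10 peaks nearest in rank were 379 to 492 bp wide. When signal was divided by width, the higher *Flcn* summit fell to rank 160, whereas merging overlapping peaks, counting distinct intervals or keeping only promoter peaks left it at rank 10.

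No 4-OHT peak was listed at *Flcn*. The 4-OHT samples served in the study to test the specificity of the antibodies. Of all EtOH peaks, 421 (79.7%) overlapped no 4-OHT peak, so the absence of one was the common outcome in the list. It was less common among strong peaks: of the 10 highest EtOH peaks 8 overlapped a 4-OHT peak (80.0%, Wilson 95% interval 49.0% to 94.3%), and of the 20 highest 17 did (85.0%, 64.0% to 94.8%). These intervals treat the peaks as a random draw, whereas they were taken by rank from 1 pooled list and include *Flcn* itself. They give no error over samples. Among the 421 EtOH peaks without a 4-OHT peak the median signal value was 91.6, and the higher *Flcn* summit was the second highest of them. The 1 above it was at *Pip5k1c*, which encodes a kinase that makes phosphatidylinositol 4,5-bisphosphate, with a signal value of 772 and rank 3. Next below *Flcn* was the peak at *Fbxl14*, which encodes an F-box protein of a ubiquitin ligase, with a signal value of 633 and rank 19.

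The 4-OHT peak closest to the *Flcn* interval was 2164118 bp away, at *Galnt10*, and on the other side the nearest was 2792089 bp away. Among the 8 highest EtOH peaks without a 4-OHT peak, *Flcn* included, the distance to the nearest one ran from 90340 bp at *Pip5k1c* to 17711093 bp. At *Fbxl14* it was 1630407 bp, so a distance of this size was not particular to *Flcn*. Chromosome 11 held 30 of the 176 4-OHT peaks and 52 of the 528 EtOH peaks. Of these 52 EtOH peaks, *Flcn* ranked 4, and 11 overlapped a 4-OHT peak. The missing 4-OHT entry says that no peak passed the authors' selection. It gives no signal value at *Flcn* in 4-OHT cells, and the difference between the treatments therefore has neither a size nor an error. Because each culture was measured in bulk, cells that kept the floxed allele and PRDM10 left in recombined cells cannot be told apart where a 4-OHT peak is listed. Not every 4-OHT peak had an EtOH counterpart. In the whole 4-OHT list 109 of the 176 entries had one, and on chromosome 11 18 of the 30 had none. The maximum IDR score was held by 98 of the 176 entries, and 76 had an FDR score below 0. What gave rise to the 4-OHT peaks was not tested.

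The peaks nearest to *Flcn* in rank of signal value all had a 4-OHT counterpart. Likeness was taken as the smallest difference in rank within the EtOH list, which is 1 list and no set of samples. The 5 peaks just above were at *Trpv2*, *Galnt10*, *Uchl1*, *Cnot6* and *Mical3*, with signal values of 764, 759, 731, 730 and 711. The 5 just below were at *Sept11*, *Taf15*, *Asah1*, *Eed* and *Ephb2*, with signal values of 701, 694, 684, 678 and 675. These 10 values spanned a narrow range, and *Mical3* and *Sept11* were within 7.06 and 3.41 units of *Flcn*. Without replicate values the order among them has no error and is not a difference between sites. All 10 overlapped a 4-OHT peak (Wilson 95% interval 72.2% to 100%), as did 17 of the 19 peaks within 10 ranks of *Flcn* and 30 of the 34 within 25 ranks. The wider sets include the same 10 peaks. As the peaks were chosen by rank from 1 pooled list, the interval gives no error over samples.

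Their 4-OHT signal values differed from site to site. The narrow range of their EtOH values comes from the choice by rank, so the ranges in the 2 lists are not compared. At *Trpv2*, which encodes a cation channel, the 4-OHT peak had a signal value of 434 and was the highest of its list, although the EtOH summit was 21507 bp from the nearest protein-coding TSS. At *Taf15*, which encodes an RNA-binding protein associated with TFIID, the 4-OHT value was 427 and ranked 2. At *Mical3*, which encodes an actin-regulating monooxygenase, it was 304. At *Uchl1*, a ubiquitin hydrolase gene, it was 200.0, at *Asah1*, the acid ceramidase gene, 193, and at *Cnot6*, which encodes a CCR4-NOT deadenylase, 187. The 4-OHT value was 166 at *Galnt10*, a gene for an enzyme of O-glycosylation. It was lower at *Sept11*, which encodes a septin, with 97.5, at *Ephb2*, which encodes an ephrin receptor, with 65.1, and at *Eed*, which encodes a subunit of Polycomb repressive complex 2, with 64.7. All 10 were above the median of the 4-OHT list, 55.7. The pooled 4-OHT list gives no such value for *Flcn*, as it holds no peak there.

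**Figure D4:**
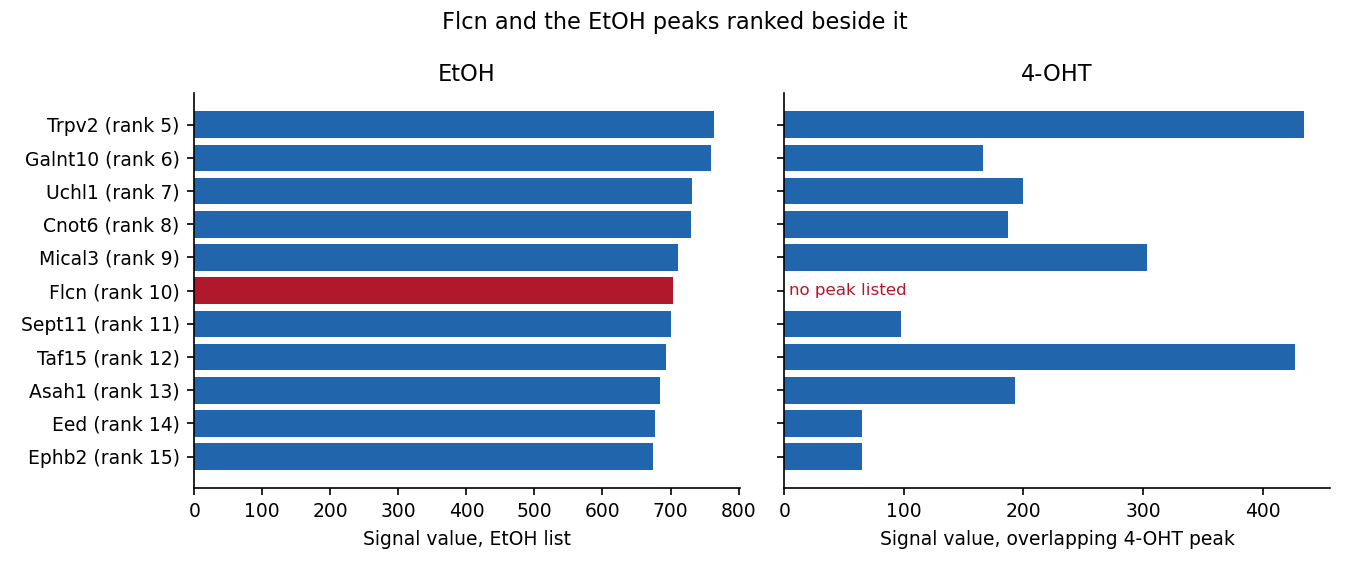
Signal values of *Flcn* (red) and the 5 EtOH peaks on each side of it in rank (left), and of the 4-OHT peaks that overlap them (right, on the scale of the 4-OHT list). The EtOH values run from 675 to 764, the 4-OHT values from 64.7 to 434, and no 4-OHT peak is listed at *Flcn*.

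The higher *Flcn* summit lay inside the motif match shown above as the summit site, with the centre of the match 4.5 bp away. A match was present in 338 of the 528 EtOH peaks (64.0%), and 121 (22.9%) held 2 or more, as *Flcn* did. The summit fell within a match in 23 peaks (4.36%), and 11 peaks had a match closer to the summit than *Flcn*, against a median distance of 56.0 bp where a match was present. Of the 20 highest EtOH peaks, 15 held a match, 7 held 2 or more, and *Flcn* was the 1 whose summit lay within it. In 638 bp windows placed around the TSS of each of 21938 protein-coding genes as the interval lies around that of *Flcn*, 27.8% held a match and 5.14% held 2 or more. Since the EtOH peaks were mostly shorter than these windows, the shares are not for sequences of equal length. Of the 32851 RefSeq promoters of 300 bp, 13.7% held a match. These are counts of letters and do not show which match was bound.

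The lower *Flcn* summit had no match within 100 bp, also when 1 mismatch among the fixed letters was allowed. The nearest centre was that of the summit site, 223.5 bp away. The G and C content of the 201 bp around each summit was 58.2% at the higher and 55.7% at the lower one. Around the higher summit these bases held 17 CpG dinucleotides, 1.00 times the number that its C and G content gives, and around the lower summit 7, or 0.450 times. The whole interval was 60.3% G and C, near the EtOH median of 58.9%.

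The 2 *Flcn* sites were next scored with a position weight matrix. The matrix was built from the 240 EtOH regions other than *Flcn* that had a match within 100 bp of the summit, using the match nearest to the summit, and its scores are log2 ratios to the base composition of the peaks. The exon 1 site scored 15.82 and the summit site 13.99, against a maximum of 17.38. The best score anywhere in each of the other 483 merged EtOH regions was below the summit site in 69.2% of regions and below the exon 1 site in 91.9%. Much of this contrast follows from the fixed letters, since regions without a match cannot score high and the matching regions helped to build the matrix. Thus the *Flcn* match under the higher summit was the lower-scoring of its 2 matches. The difference lay mostly at position 11, where the G of the summit site was found in 15.0% of the 240 sites and the T of the exon 1 site in 38.3%. At position 9 the C of the summit site and the G of the exon 1 site were almost equally common, with 33.8% and 33.3%.

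**Figure D5:**
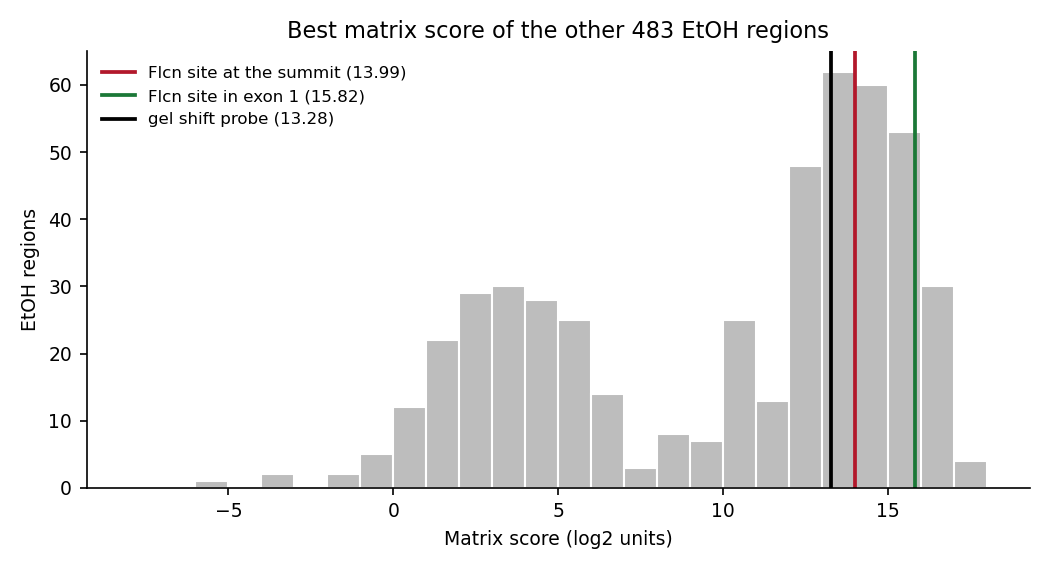
Histogram of the best matrix score (log2 units) in each of the other 483 EtOH regions, with vertical lines for the *Flcn* summit site (13.99), the *Flcn* exon 1 site (15.82) and the gel shift probe of the study (13.28). Both *Flcn* sites fall among the higher-scoring group of regions.

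The sites are set beside the 14 bases of the study's gel shift probe and of the matches nearest to the summit in the peaks that ranked next to *Flcn*, with the fixed letters in capitals, to show what they share beyond those letters.

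*Flcn* summit site: gaTGGTtccggCCg
*Flcn* exon 1 site: gaTGGTtcggtCCg
Probe: agTGGTcgcgcCCg
*Trpv2*: agTGGTctcccCCg
*Uchl1*: aaTGGTacaagCCa
*Mical3*: taTGGTccatgCCg
*Sept11*: aaTGGTcgagtCCa
*Taf15*: atTGGTactttCCt
*Asah1*: caTGGTgtggcCCa
*Ephb2*: cgTGGTgcaacCCg

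Of the 10 neighbouring peaks, 7 held a match, and those at *Galnt10*, *Cnot6* and *Eed* held none. The match at *Ephb2* was the closest to its summit, 13.5 bp away, and that at *Mical3* the farthest, 103.5 bp. The *Flcn* summit site shared 10 of 14 bases with the *Mical3* match, 9 with that of *Uchl1* and 7 with that of *Taf15*, where the 6 fixed letters are common to all. It shared 9 with the probe, and the exon 1 site shared 8. The probe, which scored 13.28, thus stood below both *Flcn* sites on the matrix. The 8 bases GATGGTTC that open both *Flcn* sites occurred on either strand in 10 of the 484 merged EtOH regions (2.07%), and neither 14-base site occurred in another region.

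The *Flcn* promoter printed above also held TGACGTCA, the palindromic cAMP response element, centred 68.5 bp upstream of the *Flcn* TSS and 30.5 bp from the higher summit. This palindrome was present in 1.79% of the 32851 RefSeq promoters. The shorter TGACG, found in 20.8% of promoters on either strand, occurred at *Flcn* only as the overlapping arms of the palindrome. The letters CACGTG of the E-box, CCAAT of the CCAAT box, GGGCGG of the GC box and TATAAA of the TATA box were not found on either strand of the interval. The shares of promoters with them were 7.15%, 37.4%, 35.7% and 13.6%.

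Around *Flcn*, the peak was isolated. The bodies of 5 protein-coding genes, *Flcn* included, lie wholly or partly within 100 kb of the *Flcn* TSS. That of *Mprip*, a myosin phosphatase partner gene, does so only in part, its TSS being 148711 bp away. *Mprip*, *Pld6*, a gene for a mitochondrial phospholipase, and *Cops3*, which encodes a subunit of the COP9 signalosome, had no peak in either list. *Nt5m*, which encodes a mitochondrial deoxyribonucleotidase, had 2 weak EtOH peaks at chr11:59847319-59847748 and chr11:59847563-59847992, more than 37 kb from *Flcn*. Their signal values were 20.6 and 19.6, ranking 515 and 516 of 528, so the higher *Flcn* summit was 34.2 and 35.9 times as high on the same scale. Their IDR scores were 565 and 558, and their FDR scores were below 0, as for 37 EtOH peaks in all. The summits lay 539 and 295 bp upstream of the protein-coding TSS of *Nt5m*, and the 1 match there scored 8.55. No 4-OHT peak was listed at any of the 5 genes.

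The genes through which folliculin acts were then examined by role. In the same window as for *Flcn*, an EtOH peak was listed for 2.48% of the 21938 protein-coding genes and a 4-OHT peak for 0.734%. Of 46 genes of the pathway, 4 had an EtOH peak (8.70%) and 1 had a 4-OHT peak. Neither partner gene, *Fnip1* or *Fnip2*, had a peak. None was listed for the 10 genes of the Rag GTPases, the Ragulator complex that anchors them at the lysosome and the arginine sensor *Slc38a9*, or for the 8 genes of the GATOR complexes that set the state of the Rag GTPases. None of the 4 genes of the MiT/TFE factors that folliculin controls had one.

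Of the 9 genes of mTORC1 and its regulators, 2 had a peak. *Mlst8*, which encodes a core subunit of mTORC1, had an EtOH peak with a signal value of 511 and rank 49, its summit 166 bp from the TSS, and was the only pathway gene with a 4-OHT peak. *Akt1s1*, which encodes the mTORC1 inhibitor PRAS40, had an EtOH peak with a signal value of 296 and rank 159, its summit 10 bp from the TSS. Of the 8 genes of AMPK and its activating kinase, *Prkag2*, which encodes a regulatory subunit, had a peak with a signal value of 203, 192069 bp into the gene from its 5′-most TSS. Of the 5 genes taken as responders to folliculin loss, *Mcoln1*, which encodes a lysosomal calcium channel, had a peak in its window with a signal value of 50.9, but the nearest protein-coding TSS was that of *Pnpla6* and the *Mcoln1* TSS was 15070 bp away. When only the TSS and the 1 kb upstream were counted, *Mlst8* and *Akt1s1* remained, 2 of 46 (4.35%) against 1.32% of protein-coding genes. The *Flcn* peak had a higher signal value than any of these 4, with 704 against 511 at *Mlst8*. The list was small and was chosen with results of these data known, so the shares are descriptions.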

How the data were processed

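Mouse ESC chromatin was immunoprecipitated with 3 antibodies per treatment and compared with input. The authors aligned reads to mm10 (GRCm38) with BWA 0.7.13 and filtered them with Picard 2.10.6 and SAMtools 1.2, per the submitters' processing notes, and called peaks with SPP on the pooled samples and selected them by IDR between pseudo-replicates, in the ENCODE pipeline. The deposited signal is the peak caller's enrichment, and the deposited scores are the IDR score, capped at 1000, and an FDR score. The methods state an approximate raw read number for the libraries, but the lists hold no read counts per sample or peak, so no depth-based precision can be given.

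Ranks, overlaps (at least 1 bp), distances to GENCODE vM21 starts and motif matches were computed here with Python 3.11.15, pandas 2.3.3, numpy 2.4.6, scipy 1.17.1, pyfaidx 0.9.0.4, matplotlib 3.10.9 and samtools 1.23.1. The motif search, overlaps, merging of peaks and base frequencies of the matrix were tested on simulated data, but ranks and distances to starts were not. The matrix used a pseudocount of 1. Promoter sequences are from RefSeq. No test was planned, as each treatment has 1 pooled list. Named genes were *Flcn*, protein-coding genes within 100 kb, the 5 peaks on each side in rank, stronger peaks without a 4-OHT counterpart, and pathway genes with a peak. *Fbxl14* and the intervals with 2 summits were named after their values were seen, as were the promoter motifs other than that of PRDM10. The members and lists were chosen with earlier results of these data known. Alternatives were other gene windows, IDR scores, rankings, overlap rules, start sets, patterns and matrices. Expression data were not used here.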

Additional observations from a re-analysis of the deposited data

How the results depend on the processing

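Of 37 alternative settings, 5 narrowed a 4-OHT count that was already 0 and could not change it. Of the other 32, 26 left the value within 1.5 times that reported or, for the share of neighbouring peaks, within its Wilson interval, and 6 did not. Some of the 26 could not have moved either. Both *Flcn* EtOH entries had the maximum IDR score of 1000, so the IDR settings could not remove them. Their interval covers the *Flcn* TSS, so the narrower gene windows kept them too. The matrix shares of 69.2% and 91.9% could not rise by 1.5 times. Counting 50 kb on both sides of *Flcn* gave 4 EtOH peaks in place of 2, the added ones being those at *Nt5m*. The rank of *Flcn* went from 10 to 160 when signal was divided by peak width. The count of motif matches, 2, became 4 with 1 mismatch among the fixed letters, 1 with the whole 14-base pattern and 1 within 100 bp of the higher summit. The pathway genes with an EtOH peak went from 4 to 2 with the TSS and 1 kb upstream only. No 4-OHT peak was listed in the wider windows either, of 1, 10 and 100 kb around the EtOH peak and 50 kb around the gene. With other matrices the summit site stood above 63.1% to 81.0% of the other regions and the exon 1 site above 88.8% to 95.2%. No paired analysis was possible because the lists used here are pooled over the 3 antibodies and carry no values per sample. Values per antibody were not analysed here, and no sample was left out. Without read counts at *Flcn*, no level can be given for 4-OHT cells.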
